A study of Bos taurus with 12 samples.

Results

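The data described here are the listed methylation differences in the 5 Mb interval of cattle chromosome 6 from position 35000001 to 40000000 (build ARS-UCD1.2), which holds ABCG2, SPP1 and LCORL and was chosen for its known link to milk traits. Every deposited row whose start fell in the interval was taken, whatever its methylation values. All deposited rows had already been selected by the authors for a methylation difference. The interval was chosen with earlier results of these data known. The interval held 388 of 196275 listed CpG cytosines (sites) and 12 of 1227 listed windows of 500 bases (tiles). The 388 sites belonged to 291 CpG dinucleotides, since the 2 cytosines of a CpG, on opposite strands, were listed separately.

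Blood was collected from 12 cows (Bos taurus) kept on the same farm under the same conditions. The susceptible group, MSG, consisted of 6 cows that were culled within 1 year for complications of mastitis not identified at sampling, and the resilient group, MRG, of 6 cows of similar age distribution that were still in the herd. The comparison asks which cytosines in blood differed between these groups before those complications were identified. Breed, parity and treatments were not given in the labels, and the cow numbers used below only name the animals within a group. Genomic DNA of whole blood was read by enzymatic methylation sequencing, in which unmodified cytosines are converted and read as thymine, and methylated and hydroxymethylated cytosines are both read as cytosine. Each value below is a percent methylation of 1 cow, and in bulk blood a shift in the share of cell types and a shift within a cell type cannot be told apart. The tables hold no expression values, so the labelled tissue could not be checked against blood cell markers.

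ABCG2 encodes a membrane transporter that moves riboflavin, urate and many drugs out of cells, and in the mammary gland it secretes such compounds into milk; a coding variant of it is a known cause of variation in milk composition in cattle. Beside it lie genes of the SIBLING family, secreted phosphoproteins of bone and milk, among them SPP1 (osteopontin, also a cytokine of immune cells), MEPE and IBSP. Farther along the chromosome are NCAPG, a condensin subunit, and LCORL, a transcription factor, which mark a major locus for stature and carcass weight in cattle. Methylation of CpGs in promoters often accompanies low transcription, while the bodies of transcribed genes and most intergenic CpGs are usually highly methylated.

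The listed sites of the interval were mostly far from genes. Of the 388 sites, 319 (82.2%) were annotated as intergenic, 61 (15.7%) as intronic, 6 as promoter, 2 as 3′ untranslated region and 0 as exonic. Among all other listed sites of the genome, 58.2% were intergenic and 34.9% intronic. The authors' nearest-gene assignment gave 382 of the sites to 20 gene symbols, but only 39 sites lay inside the assigned gene and 276 lay over 100 kb from its start. SLIT2 took 207 sites and LCORL 64, followed by IBSP with 17, NCAPG with 16 and ABCG2 with 15. Of the 31 genes in the lists used below, 18 had a listed site. The number of sites was not unusual for its length, since 192 of the 569 windows of 5 Mb with listed sites had more than 388 and the median was 277.

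More of the sites were higher in MSG than lower. The mean was higher in MSG at 260 of the 388 sites (67.0%), against 52.7% of all listed sites and 55.0% of those on the rest of chromosome 6. Over all sites of the interval, the cow means were 66.7, 61.8, 56.4, 58.8, 65.0 and 70.0% in MSG 1 to 6 and 41.7, 47.1, 51.2, 41.8, 55.4 and 51.7% in MRG 1 to 6. Every MSG cow was thus above every MRG cow, although these means rest on rows that the authors listed for a difference between the same groups. Without the densest window of 100 kb, 153 of 281 sites (54.5%) were higher in MSG, but the remaining sites were not even. In the 2.56 Mb up to the LCORL start, outside that window, 81 of 119 sites (68.1%) were higher. Between LCORL and SLIT2 without that window, 70 of 155 (45.2%) were. Among the 102 sites where no cow was at 0%, 55 (53.9%) were higher, beside 57.3% of such sites in the rest of the table and 68.0% on the rest of chromosome 6.

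The rows were selected by the authors on the same contrast, so the tests below describe how the group differences compare with the spread between cows and are not independent evidence of a difference. limma on percent methylation, fitted over each whole table with Benjamini-Hochberg adjustment, called 11 of the 12 tiles at an adjusted p under 0.05, where 73.3% of all listed tiles passed. The exact permutation test with the same adjustment called 6 of the 12, and limma without MSG 6 called 7. With no cow left out, limma called 0 of the 388 sites, as it called 0.0% of all listed sites. The lowest limma adjusted p of a site in the interval was 0.0781. Without adjustment, 207 of the 388 sites had a limma p under 0.05, beside 51.9% of all listed sites, and 186 had one in the exact permutation test over cows, of which 0 passed after adjustment (lowest 0.110). The share of sites passing without adjustment in limma was thus near the background over the whole interval, but not in its parts. It was 33 of 119 (27.7%) up to the LCORL start and 171 of 262 (65.3%) between LCORL and SLIT2. Between LCORL and SLIT2 without the densest 100 kb, it was 71 of 155 (45.8%), so the high share there rested on that window. From the SLIT2 start on it was 3 of 7. The groups did not overlap at 19 of the 388 sites, 17 higher and 2 lower in MSG, where 2.36% of all listed sites were that clear, and at 3 of the 12 tiles, where 6.03% of all tiles were.

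**Figure D1:**
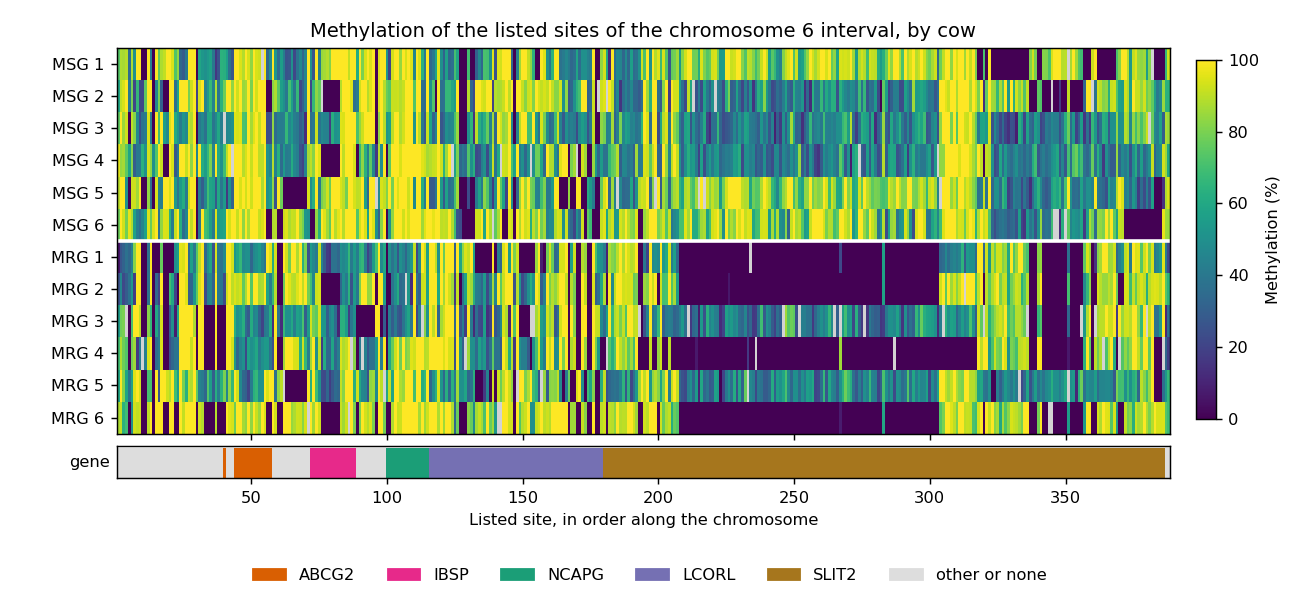
Percent methylation (colour, from 0 to 100) of the 388 listed sites in order along the chromosome (columns) in each of the 12 cows (rows, MSG above the white line, MRG below; grey is not measured), with the assigned gene in the lower strip. A long stretch assigned to SLIT2 is near 0 in MRG 1, 2, 4 and 6 and not in the other 8 cows.

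ABCG2 carried 12 promoter and intronic sites at which the MSG cows were mostly nearly fully methylated and MRG cows were split. Of its 15 assigned sites, 13 were higher and 2 lower in MSG, and 12 of the 13 higher ones had no cow at 0%. The 1 other higher site, at 36466733, lay in an intron of PPM1K and had MSG cows at 53.8 to 77.8% (MSG 3 not measured), MRG 5 at 80% and MRG 3, 4 and 6 at 0. Averaged over all 13, the 6 MSG cows had 92.4, 93.4, 91.6, 94.1, 94.0 and 92.9%. The MRG cows had 49.5, 85.6, 41.3, 43.8, 59.7 and 84.7%. MRG 2 and MRG 6 were therefore close to the MSG cows, while MRG 1, 3 and 4 were at about 41 to 50% and MRG 5 between. The middle value of MRG 5 was an average of unlike sites: it had 96.4% at the promoter CpG. Over the sites in introns 3 to 7 it had 50.4%, beside 48.3, 42.5 and 48.3% in MRG 1, 3 and 4. Because the 13 sites were taken as the higher ones, the direction of that mean is fixed and carries no test. The same holds for every mean below that is taken over only the higher or only the lower sites.

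The run of sites nearest to the ABCG2 start was a CpG annotated as promoter, listed on both strands at positions 36549466 and 36549467, 2.97 kb from the transcript start assigned by the authors. Its mean was 97.8% ± 2.46 (SD, n = 6) in MSG and 72.3% ± 22.9 (SD, n = 6) in MRG. MRG 1, 3 and 4 were at 56.3, 56.3 and 43.3%, and MRG 2, 5 and 6 at 92.8, 96.4 and 88.9%, so the low values belonged to 3 cows. The exact permutation test of this CpG gave an unadjusted two-sided p of 0.00866, and the smallest p that the 924 regroupings of 6 against 6 cows allow is 0.00216. A further 10 higher sites lay in introns 3 to 7, from 36565987 to 36579104, with 94.6% ± 2.0 (SD, n = 6) in MSG and 62.0% ± 22.9 (SD, n = 6) in MRG. Within these introns, the plus-strand site at 36574968 in intron 6 of 15 separated the groups: MSG cows had 92.3, 100, 91.7, 90, 100 and 91.7%, and MRG cows 55.0, 86.7, 30.8, 41.7, 50 and 84.6%. Its difference was 36.2 points with a standard error of 15.4, with an exact permutation p of 0.00216 and a limma adjusted p of 0.0859, so it did not pass over the table. Any site named for having no overlap has this smallest exact p by selection, so that p carries no test, here or below.

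The ABCG2 sites were not all in one direction. Near the 3′ end, both strands of a CpG at 36599191 and 36599192 were lower in MSG, with 40.7, 0, 23.4, 47.2, 52.3 and 0% in MSG 1 to 6 and 97.6, 50.4, 52.2, 45.7, 97.2 and 0% in MRG 1 to 6. Here MSG 2, MSG 6 and MRG 6 were at 0 and the groups overlapped. The authors assigned 3 more sites, from 36499040 to 36501359, to LOC112447205 although they lay in introns of a longer ABCG2 transcript, and all 3 were lower in MSG. At those 3, the cows had 40, 94.4, 47.6, 94.7, 32.6 and 98.0% in MSG and 97.8, 94.3, 100, 97.8, 65.2 and 96.4% in MRG. Counted by the transcript that contains them, ABCG2 held 15 intronic sites, of which 10 were higher and 5 lower, with means of 80% ± 5.69 (SD, n = 6) in MSG and 67.4% ± 12.9 (SD, n = 6) in MRG.

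**Figure D2:**
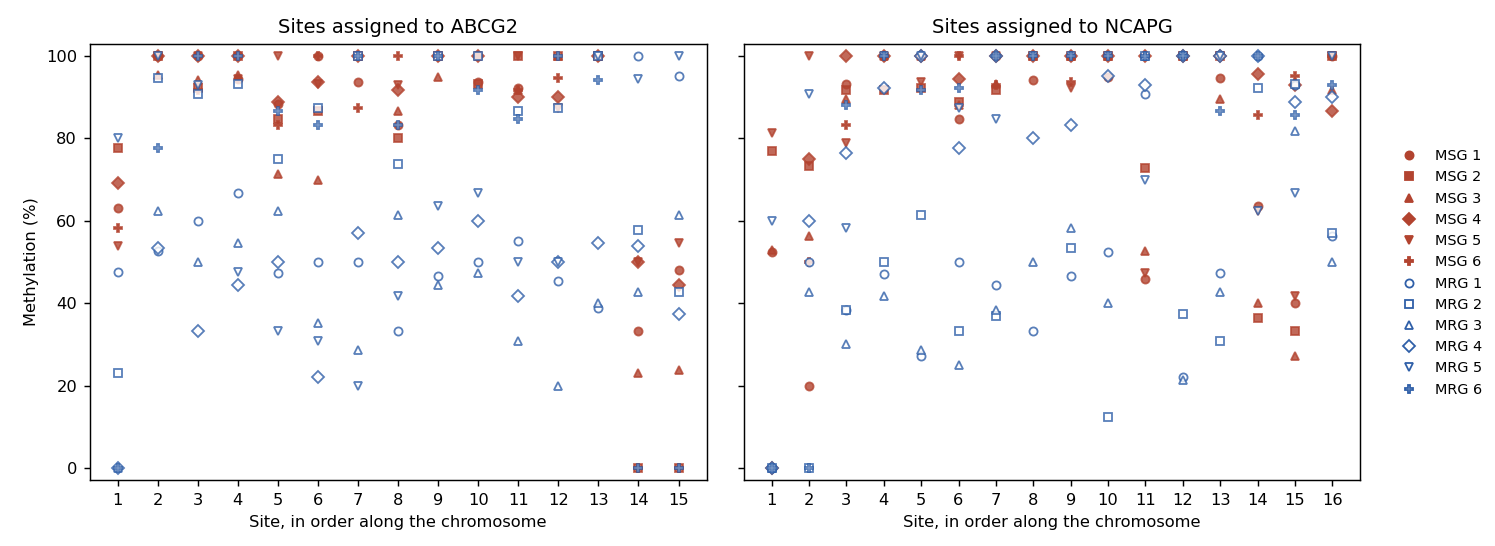
Percent methylation of each cow (points, MSG filled or red, MRG open or blue) at the 15 sites assigned to ABCG2 and the 16 assigned to NCAPG, in order along the chromosome. At most higher sites the MSG cows are near the top and several MRG cows lie apart from the others, MRG 1, 3 and 4 at ABCG2 and MRG 1, 2 and 3 at NCAPG.

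The SIBLING genes had 29 assigned sites, 17 higher and 12 lower in MSG, and 0 of them inside a SIBLING gene. SPP1 itself had 2 sites, 34.0 and 66.5 kb from its start. Over both, MSG cows had 45.6, 65.1, 42.3, 49.4, 88.9 and 0%, and MRG cows 0, 0, 25, 0, 86.7 and 0%. MRG 5 and MSG 5 were high together and MSG 6 lay with the MRG cows at 0, so the groups overlapped. For the nearer SPP1 site the exact permutation p was 0.156.

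IBSP, bone sialoprotein, had 17 intergenic sites, 14 of them higher in MSG. Over these 14, MSG 1, 5 and 6 were at 95.2, 92.2 and 93.8%, MSG 2, 3 and 4 at 46.4, 71.4 and 48.9%, and the MRG cows between 25.8 and 60.4%. The run with the most sites here, 6 sites from 36988523 to 36990360, had a mean of 52.4% ± 44.3 (SD, n = 6) in MSG and 23.4% ± 19.2 (SD, n = 6) in MRG, with an exact permutation p of 0.167. In that run MSG 1, 5 and 6 were near 90% while MSG 2, MSG 4, MRG 2 and MRG 6 were at 0, so the same level occurred in both groups. MEPE, matrix extracellular phosphoglycoprotein, went the other way at 9 of its 10 sites. There MSG cows had 36.4, 46.4, 41.1, 42.1, 0 and 86.1% and MRG cows 89.2, 93.0, 53.6, 88.5, 0 and 92.6%, so that MSG 5 and MRG 5 shared the value 0.

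The growth and carcass genes had 91 assigned sites, 50 higher and 41 lower, with a median difference (MSG minus MRG) of 24.1 points, beside 29.2 over the interval and 22.7 over all listed sites. Small differences were not listed, so this signed median mainly shows which direction was more frequent. The median absolute difference was 32.6 points over the interval and 32.7 over all other listed sites. LAP3, a leucine aminopeptidase, had 8 sites, none inside the gene, and 7 were higher in MSG. Over these 7, MSG cows had 90.1, 88.4, 92.6, 53.9, 81.6 and 87.4% and MRG cows 45.9, 84.1, 0, 31.4, 62.4 and 76.7%. MRG 3 was at 0 at each of the 7, and MRG 2, 5 and 6 were within the MSG range. MED28, a subunit of the Mediator complex, had 3 sites. One of them, at 37175773 and 6.56 kb from its start, was 1 of the 2 lower sites of the interval without overlap. All 6 MRG cows were at 100% there, and MSG cows had 94.4, 93.8, 83.3, 88.9, 47.1 and 31.6% (exact permutation p 0.00216, limma adjusted p 0.117).

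At its 13 higher sites, NCAPG resembled ABCG2 in having high MSG values and split MRG values, but the low cows differed. MSG cows had 87.2, 92.8, 89.3, 88.9, 95.9 and 86.1% there. MRG 1, 2 and 3 had 39.7, 34.3 and 36.1%, and MRG 4, 5 and 6 had 81.2, 90.9 and 80.9%. MRG 2 was thus high at ABCG2 and low at NCAPG, and MRG 4 the reverse. The authors assigned NCAPG sites to transcripts with different starts. The CpG nearest to any of these starts, 6.53 kb away at 37308170 and 37308171, had 97.7% ± 1.85 (SD, n = 6) in MSG and 67.0% ± 29.9 (SD, n = 6) in MRG, with an exact permutation p of 0.0173 (0.0736 to 0.0758 without any 1 MSG cow). The CpG nearest to the start of the transcript with the most assigned sites, at 37347997 and 37347998 in an intron, had 98.4% ± 1.78 (SD, n = 6) in MSG and 70.1% ± 29.7 (SD, n = 6) in MRG, with an exact permutation p of 0.0606. Just upstream, 8 sites, 6 of them among the 13 already described, lay in introns of a transcript for which the files give no symbol (ENSBTAG00000005932), and 8 of 8 were higher in MSG, at 83.4% ± 6.05 (SD, n = 6) against 54.8% ± 22.4 (SD, n = 6). MRG 1, 2 and 3 were the lowest 3 cows, at 40.1, 42.4 and 24.8%.

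LCORL had 64 assigned sites, of which 28 were higher and 36 lower, but only 4 lay inside the assigned transcript model and the median distance from its start was 666 kb. By containing transcript, LCORL held 6 intronic sites, 1 higher and 5 lower, at 65.7% ± 22.8 (SD, n = 6) in MSG and 86.0% ± 13.3 (SD, n = 6) in MRG. MSG 1, 2, 3 and 5 were at 48.7 to 55.1% and MSG 4 and MSG 6 at 93.7 and 96.2%, so here the split was among MSG cows. The 1 higher intronic site, at 37466206, was at 100% in 5 of 6 MSG cows and at 50, 60, 33.3, 100, 93.8 and 87.5% in MRG 1 to 6 (exact permutation p 0.0152; without any 1 of the 5 cows at 100% it was 0.0519). Far upstream, 353 kb from the LCORL start, the site at 37910543 had no overlap and no cow at 0. MSG cows had 70.0, 55.2, 70.6, 57.1, 70.0 and 68.8% and MRG cows 30.8, 16.7, 33.3, 25, 40 and 33.3%. Its means were 65.3% ± 7.12 (SD, n = 6) and 29.9% ± 8.07 (SD, n = 6), so both SDs were well under the difference of 35.4 points, with an exact permutation p of 0.00216 and a limma adjusted p of 0.0859.

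The other genes around ABCG2 had few sites. The lists of HERC ubiquitin ligases and of the remaining ABCG2 neighbours had 4 and 31 sites, with 3 and 23 higher in MSG. At 2 sites in HERC5 introns, MRG 3, 4 and 6 were at 0 and the other 9 cows at 33.4 to 68.3%. The same 3 cows were at 0 at 3 sites in introns of PPM1K, 1 of them the site at 36466733 counted above with ABCG2, and the other 9 cows were at 34.0 to 62.2%. PPM1K encodes a mitochondrial phosphatase that acts in branched-chain amino acid breakdown. FAM13A, linked in people to lung function and fat distribution, had 5 sites, 5 of 5 higher in MSG and all intronic, 8.97 to 10.3 kb from its start. Their means were 91.6, 47.3, 71.8, 44.2, 89.6 and 77.2% in MSG and 10, 29.8, 17.3, 19.4, 90.2 and 40% in MRG, where MRG 5 lay among the highest MSG cows. Counted by containing transcript, FAM13A held 7 sites, 6 higher and 1 lower, at 68.4% ± 12.7 (SD, n = 6) in MSG and 43.8% ± 21.5 (SD, n = 6) in MRG. PKD2, a calcium-permeable channel of the kidney, had 1 higher and 1 lower site, with overlapping groups.

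Most of the sites lay in the gene-poor stretch between LCORL and SLIT2. RefSeq's gene table for the newer build ARS-UCD2.0 places 3 genes there, of which 0 are protein-coding. These 2.22 Mb held 262 of the 388 sites, 177 of them higher in MSG, and 227 (86.6%) had at least 1 cow at 0%. In the 2.56 Mb up to the LCORL start, 119 sites were listed, 81 higher, and 54 (45.4%) had a cow at 0. Where an animal carries thymine in place of a cytosine, the assay reports that base as unmethylated. Over the interval 286 sites (73.7%) had a cow at 0, beside 78.3% of all other listed sites, and the part of sequence variants in any of these differences was not tested.

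**Figure D3:**
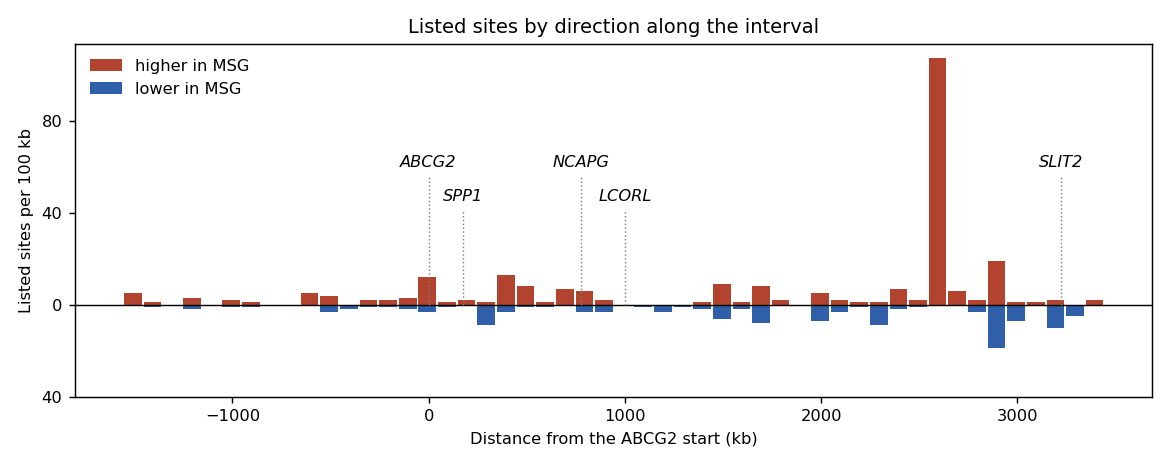
Number of listed sites in each window of 100 kb, higher in MSG above the line and lower below it, against the distance of the window from the ABCG2 start in kb. The tallest bar, with 107 sites, lies between LCORL and SLIT2 and has 0 lower sites.

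The densest 100 kb, from 39100001 to 39200000, held 107 sites (27.6% of the interval), and 107 of 107 were higher in MSG. Across the genome, 29 of the 19835 windows of 100 kb with a listed site had at least as many, and 2 of these, this one included, had all sites in one direction. In 94 of the 107 sites, from 39138411 to 39188986, MRG 1, 2, 4 and 6 were all under 20% where measured. Those 94 sites came from 55 CpGs spread over 50.6 kb, and 78 of them had the cytosine of the other strand listed too. This selection by level is a description, since the level of the cows was used to draw it.

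Averaged over the 94 sites, the cows took only a few levels, but single sites spread around them. Outside MRG 1, 2, 4 and 6, the SD over sites ran from 13.5 points (MSG 5) to 20.8 points (MSG 6). MRG 1, 2, 4 and 6 averaged 0, 0.0665, 0.254 and 0%. MRG 3 and MRG 5 averaged 41.9 and 43.3%, and MSG 2, 3 and 4 had nearly the same level at 43.4, 42.8 and 42.3%. MSG 1, 5 and 6 were the highest at 83.4, 82.9 and 77.5%. The group means were 62.1% ± 21.2 (SD, n = 6) and 14.2% ± 22.0 (SD, n = 6), and the highest MRG cow, MRG 5, lay above the lowest MSG cow, MSG 4. At the other 13 sites of the window the order of cows was another one: MSG cows were at 82.3 to 92.8%, and MRG cows at 41.5, 76.4, 43.0, 6.59, 87.8 and 76.8%. The pattern of MRG 1, 2, 4 and 6 all under 20% occurred at 33 other sites of the interval and at 678 of the 12495 sites on the rest of chromosome 6.

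The run with the most sites lay in this block, with 10 sites from 39151074 to 39152152. MSG cows had 82.1, 45.3, 41.4, 36.0, 81.2 and 80.9%, and MRG cows 0, 0, 35, 1.85, 38.0 and 0%. Its exact permutation p was 0.00433, with MRG 5 above MSG 4 as the only overlap. A second run, 8 sites from 39139511 to 39140566, had no overlap, with MSG cows at 45.1 to 85.8% and MRG cows at 0 to 38.3% (exact permutation p 0.00216). The largest difference among separated sites measured in all cows was at 39151706, with 77.5% ± 26.7 (SD, n = 6) in MSG and 9.52% ± 14.8 (SD, n = 6) in MRG. Even there the limma adjusted p was 0.0781.

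**Figure D4:**
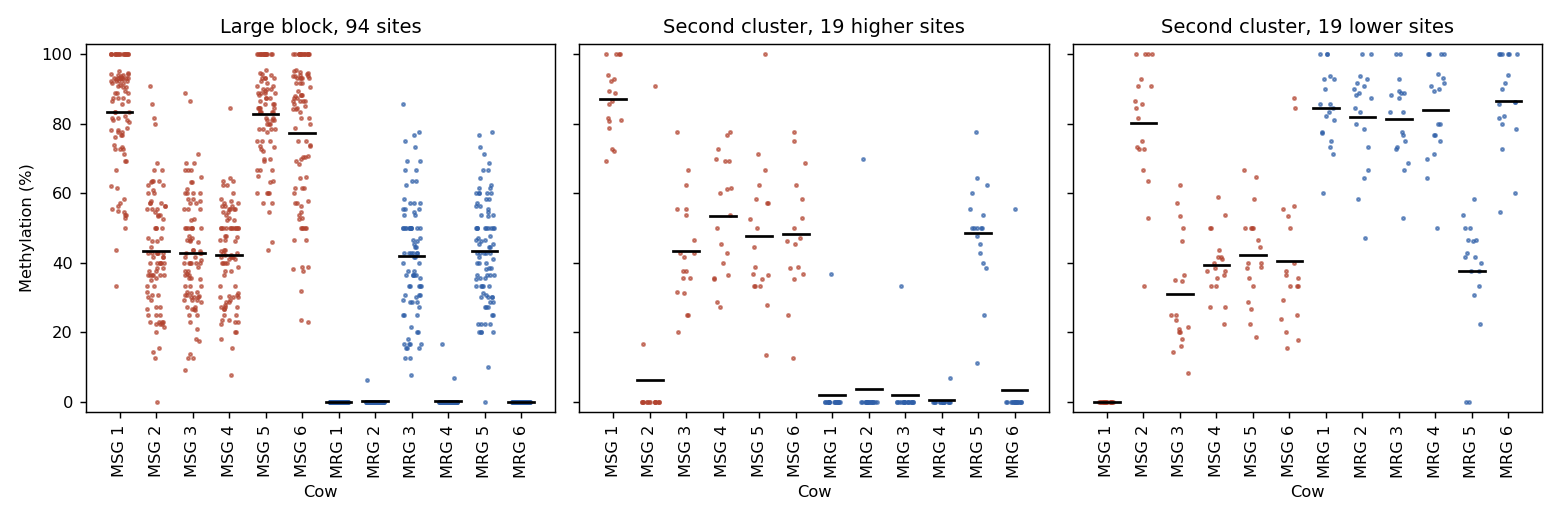
Percent methylation of each site (dots) and its mean (bar) in each cow, for the 94 sites of the large block, and for the 19 higher and 19 lower sites of the second cluster. In the block MRG 1, 2, 4 and 6 lie at or near 0 while 5 cows average near 43%, and in the second cluster the cows at or near 0 in one panel are among the highest in the other.

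The first 10 tiles all fell in this block, from 39139251 to 39186250, and 10 of 10 were higher in MSG, where 56.2% of all listed tiles were. All 12 tiles of the interval are intergenic, 338 to 640 kb from the SLIT2 start, and overlapping ones merge into 9 regions. A tile averages every CpG it covers, so it also holds CpGs that were not listed as sites. Tile 2 (39139501 to 39140000) had 92.5, 76.7, 66.4, 71.8, 86.0 and 88.6% in MSG 1 to 6 and 43.2, 45.1, 56.1, 44.3, 61.5 and 46.3% in MRG 1 to 6. The groups did not overlap, the difference was 30.9 points with a standard error of 8.45, and the limma adjusted p was 0.0347. Its neighbours tile 1 and tile 3 were also without overlap. Tile 10 (39185751 to 39186250) had the largest difference of the 10, 35.7 points with a standard error of 10.7 (limma adjusted p 0.0347), but MRG 3 at 77.8% and MRG 5 at 59.4% lay inside the MSG range of 57.3 to 92.8%. Over tiles 1 to 10 the differences ran from 23.9 to 35.7 points and all 10 passed in limma. Tiles 7 and 9 were the weakest of these: their adjusted p of 0.0378 and 0.0366 passed 0.05 in 8 and 9 of the 17 alternatives for each.

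Tiles and listed sites gave different levels for the same cows. Each of the 12 tiles held 4 listed sites, and 4 of 4 had a cow at 0. In tile 2 the listed sites averaged 0% in MRG 1, 2, 4 and 6, whose tile values were 43.2 to 46.3%. In tile 8 (39173751 to 39174250) they were again 0, with tile values of 28.9, 20.2, 29.2 and 29.6%. The methylated reads of these 4 cows in the tiles therefore came from CpGs that were not listed as sites.

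**Figure D5:**
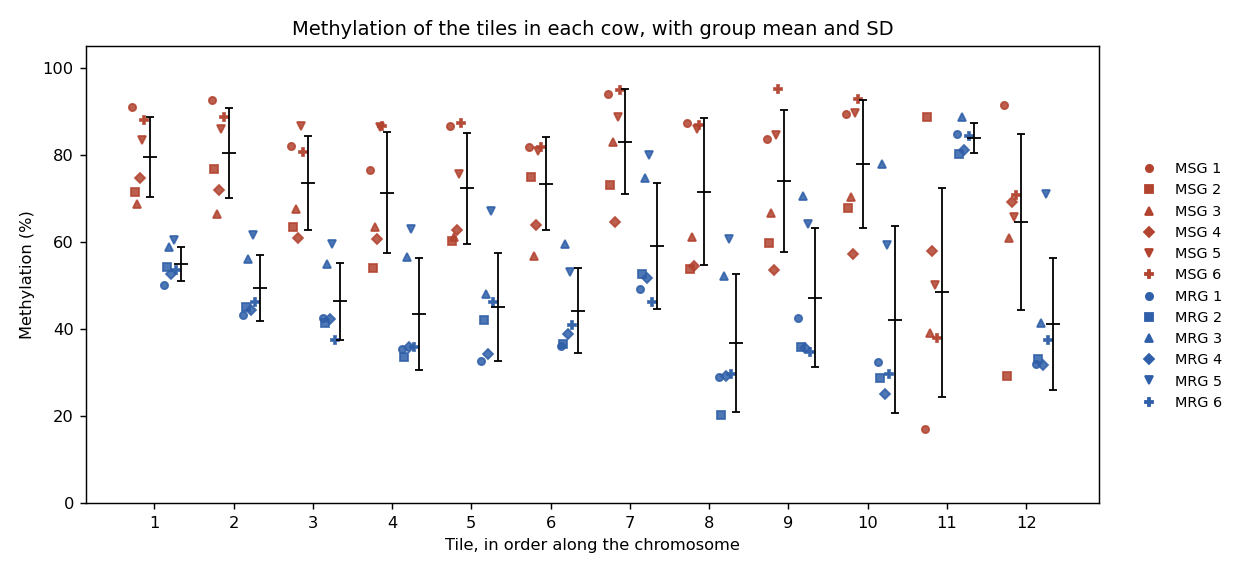
Percent methylation of the 12 tiles in order along the chromosome for each cow (symbols, MSG red, MRG blue), with the group mean and SD (black). MSG is higher in tiles 1 to 10 and in tile 12, and lower in tile 11, where MRG 5 was not measured.

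A second cluster lay farther along the chromosome, toward SLIT2. The window from 39400001 to 39500000 held 38 sites, 19 lower and 19 higher in MSG, in overlapping stretches between 39425495 and 39457382. At the lower sites MSG 1 was at 0% and MSG 2 at 80.2%, MSG 3 to 6 at 31.0 to 42.3%, MRG 5 at 37.7% and the other 5 MRG cows at 81.5 to 86.5%. At the higher sites the same cows were inverted: MSG 1 was at 87.1% and MSG 2 at 6.33%, MSG 3 to 6 were at 43.4 to 53.4%, MRG 5 at 48.6% and the other 5 MRG cows at 0.351 to 3.68%. In both directions the middle level was shared by 4 MSG cows and 1 MRG cow.

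The 2 named runs of this cluster had 9 lower sites (39425495 to 39427620; 37.3% ± 25.7 against 75.0% ± 20.2, SD, n = 6 each, exact permutation p 0.0303) and 8 higher sites (39441328 to 39442587; 52.2% ± 24.8 against 13.3% ± 19.3, SD, n = 6 each, exact permutation p 0.0108). Tile 11 (39429751 to 39430250) was the only lower tile of the 12. It had 17.1, 88.6, 39.1, 57.9, 50 and 37.9% in MSG and 84.7, 80.3, 88.7, 81.2 and 84.3% in MRG 1, 2, 3, 4 and 6, with MRG 5 missing and left out of the fit. Its difference was -35.4 points with a standard error of 11.1 (limma adjusted p 0.0347), and MSG 2 was within the MRG range. Tile 12 (39441501 to 39442000) had 64.5% ± 20.2 (SD, n = 6) in MSG and 41.1% ± 15.2 (SD, n = 6) in MRG, and did not pass in limma (adjusted p 0.0508). MSG 2 was the lowest of all 12 cows there at 29.2% and MRG 5 was second highest at 71.1%. Without MSG 2 the adjusted p of tile 12 was 0.0482, and without MRG 5 it was 0.0447.

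SLIT2 encodes a secreted ligand of ROBO receptors that guides axons and restrains leukocyte migration. Its 207 assigned sites were 150 higher and 57 lower, but only 5 lay inside the assigned gene, and 5 of these 5 were lower in MSG. The 5 sites averaged 0, 60.4, 50.6, 61.8, 14.3 and 19.3% in MSG and 65.4, 94.7, 65.7, 25, 27.3 and 94.2% in MRG. Both groups spanned most of the scale, and the values of the 2 groups overlapped. A further 2 sites, assigned to the microRNA gene MIR218-1, lay in SLIT2 introns and were higher in MSG, at 79.7% ± 9.97 (SD, n = 6) against 47.0% ± 22.1 (SD, n = 6), with no cow at 0.

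Neighbouring sites carried the same cows high and low. The sites formed 213 runs with gaps of at most 1 kb, and of the 82 runs with more than 1 site, 76 had 1 direction. After the group means were removed, the median correlation between sites over the 12 cows was 0.871 for the 2 strands of a CpG, 0.80 for sites 1 to 10 kb apart and -0.08 for sites 50 to 500 kb apart, a description over pairs that share cows and libraries. At 10 to 50 kb it was 0.694 with the densest window and -0.12 without it, so the longer reach rested on the block. On both strands of the 97 CpGs with both cytosines listed, the direction was the same at 97 of 97. A value of 0 on either strand was matched by 0 on the other in 269 of 277 cases (97.1%).

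Leaving out whole rows with a cow at 0 changed how many of the remaining sites passed, although their values stayed the same. With the site table limited to rows with no cow at 0 and fitted again in limma, 65 of the interval's 102 such sites passed at an adjusted p under 0.05 (63.7%), where 73.1% of all such sites did. At the upper end of the interval, which is an arbitrary position, the last site inside had 79.8% in MSG and 46.1% in MRG, and the next one outside had 62.0 and 84.1%.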

How the data were processed

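Percent methylation of single CpG cytosines (sites) and of 500-base windows (tiles) was deposited for 12 cows, per the file headers. The submitters' processing notes name fastp 0.23.1, Bismark, DRAGEN, ChIPseeker 1.32.1 and build ARS-UCD1.2 with no roles, and no source names the differential test. The deposited tables also hold the authors' p-values and q-values (at most 0.01 for sites) and another column, the authors' difference in percent methylation, at least 25 points in size; these were used only to check direction, which matched the cow means at 388 of 388 sites. Gene and region annotation came from the same tables. A further 36 columns of read counts were tied to no cow by name and not used, so depth per value is unknown and no interval is given; precision is limited by 6 cows a group.

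limma 3.58.1 (R 4.3.3) was fitted to percent methylation over each whole table, MSG minus MRG, with Benjamini-Hochberg adjustment and a threshold of 0.05, after tests on simulated data. Single tiles, sites and runs were tested by exact two-sided permutation over cows. No label says more than that the cows were separate animals, and cow numbers pair none. All tiles are described; runs were the 6 with the most sites and those nearest 4 gene starts (for NCAPG a second, nearest to any assigned start, was added after its values were seen); named sites were those without overlap in all 12 cows, the largest or with no cow at 0. The interval, gene lists and tests were chosen with earlier results of these data known. No DNA sequence was used here. The sites assigned to 1 gene of the lists are counted but not reported singly here.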

Additional observations from a re-analysis of the deposited data

Results flagged for a closer look

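In 5 of the 60 groups of 6 cows examined, 1 cow lay far from the other 5 by Dixon's criterion; chance flags about 1 in 20 groups. MRG 5 accounted for 4 of them, but these were not 4 separate observations. Tile 12 lies within the run of 8 higher sites, and the run of 9 lower sites belongs to the same second cluster. MRG 5 was at 71.1% in tile 12, where the other MRG cows were at 31.7 to 41.4%. It averaged 86.7% over the SPP1 sites, where the others were at 0 to 25%. In the second cluster it was at 34.0% in the run of 9 lower sites, where the others were at 80.2 to 85.0%, and at 52.2% in the run of 8 higher sites, where the others were at 0.833 to 9.26%. The fifth was MSG 1 at 95.2% at the LCORL intron site 37466206, where the other 5 MSG cows were at 100%.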

How the results depend on the processing

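Of the 12 tiles, 11 passed in limma; 6 passed in the exact permutation test and 0 at a threshold of 0.01, where 0 tiles of the whole table passed. Leaving out each cow gave 7 to 12, the lowest without MSG 6. Sites passing stayed at 0 in every alternative run except the table with no cow at 0, which gave 65. The percent of sites higher in MSG, 67.0, was 53.9 with no cow at 0, 83.0 for differences of 35 points or more, 60.5 with 1 vote per run, and 54.5 without the densest 100 kb (an alternative chosen after seeing the data). Leaving out each cow left it at 67.0, but rows listed for differences of at least 25 points could hardly change direction without 1 cow. The percent of tiles higher, 91.7, was 100 for tiles with all 12 cows measured and 50 (1 of 2) at 35 points or more. No tile, named run or named site reversed, and the same limit applies there to the refits without 1 cow. Exact p-values kept their side of 0.05 in 155 of 169 refits of the 13 named runs. They were 0.0325 for the nearer SPP1 site without MRG 5 and 0.0152 for the NCAPG CpG at 37347997 without MRG 5 or MRG 6. They also kept their side in 130 of 130 refits of the 10 named sites. Those sites were chosen for having no overlap, so this count follows largely from the choice. No paired analysis was possible because the labels give the cows no shared numbers. The depth per value is unknown, so differences cannot be weighed by coverage.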
